A study of Mus musculus with 2 samples.

Results

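Mir23a, Mir27a and Mir24-2 on mouse chromosome 8, and Mir23b, Mir27b and Mir24-1 on chromosome 13, form a pair of paralogous microRNA clusters. They are the 6 rows, of 2202 microRNA genes counted, whose gene identifiers carry these symbols in GENCODE M21, and all 6 were found. They were counted in 2 libraries of small RNA, with inserts below 30 nt, made from a calf muscle, the gastrocnemius, of B6CASTF1/J male pups 4 days old. These pups are hybrids of the C57BL/6 and CAST strains, and the labels name no further allele or treatment. Both libraries belong to 1 group. They are labelled as biological replicates 1 and 2, come from animals numbered 3 and 4, and carry the same donor identifier. With a single group and no second condition, differences between the libraries have no replicate check and are given without p-values.

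In both clusters the 3 genes lie close together in the same order, and their hairpins are known to be cut from a common primary transcript. Each mature microRNA guides Argonaute to messenger RNAs that pair with its seed, the bases from position 2 to 8, and paralogs with the same seed are expected to recognise overlapping targets. In skeletal muscle miR-23a is known as a repressor of the atrophy ubiquitin ligases, miR-27 as a repressor of Pax3 and myostatin, and miR-24 as a promoter of myoblast differentiation, while miR-23 and miR-27 also act in endothelial cells during vessel growth.

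The libraries stood apart from each other and are named by their labels. They held 8522350 and 7240126 reads, of which 4458853 and 3073086 were sense reads of microRNA genes. Mir206, which marks skeletal muscle, had 652657 reads in replicate 1 and 101 in replicate 2, whereas Mir208a, which marks heart, had 59 and 29718. The 9 genes of the skeletal muscle list held 14.7% and 0.479% of the sense microRNA reads. Mir206 made up nearly all of the list's 656697 reads in replicate 1. Reads that map to several places are counted for no gene. How many reads of the other listed genes were set aside in this way was not tested. Of the list's 14732 reads in replicate 2, 8633 were of Mir499 and 4340 of Mir208b. Neither is in the narrower set of skeletal muscle markers, which holds the Mir206, Mir133a, Mir133b and Mir1a genes. The Mir206 and Mir208a values of replicate 2 go against its label. The part of tissue makeup in the results below was not tested, and every value is given for each library on its own. In bulk tissue, fewer cells of a type and less RNA per cell cannot be told apart.

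The mature sequences are shown first, since they decide which reads can be assigned to a single member. The RefSeq table (GRCm38.p6, the same build as mm10) held the hairpins of all 6 genes and 11 mature forms of 21 to 23 nt. In the forms below, written 5′ to 3′, the seed is in capitals. The 3p forms carry 3 seeds. Among the mature forms of the table, that of miR-27a-3p occurs again in miR-27b-3p only, and that of miR-24-3p in 4 forms from other genes. The table held no mature 3p form of Mir23b, so matches to the seed of miR-23a-3p leave it out and its hairpin is shown instead.
miR-23a-3p: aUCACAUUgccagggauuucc
miR-27a-3p: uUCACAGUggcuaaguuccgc
miR-27b-3p: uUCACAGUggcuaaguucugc
miR-24-3p: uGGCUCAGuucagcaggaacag
miR-24-2-5p: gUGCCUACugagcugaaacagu
miR-24-1-5p: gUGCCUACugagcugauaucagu

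The Mir23 hairpins are shown whole to compare the 3p arm of the paralogs, with capitals marking miR-23a-3p in Mir23a and the best-matching 21 nt of Mir23b.
Mir23a hairpin: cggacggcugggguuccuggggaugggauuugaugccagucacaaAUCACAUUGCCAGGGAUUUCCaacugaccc
Mir23b hairpin: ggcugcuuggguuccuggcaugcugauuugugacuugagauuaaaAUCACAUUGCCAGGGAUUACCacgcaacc

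The seeds of the 3p forms were identical between paralogs, as were those of the miR-24 5p forms. Each of the Mir23 and Mir27 3p forms differed from its paralog by 1 base near the 3′ end. Counted from 1 at the 5′ end, the difference was U19A between miR-23a-3p and the Mir23b hairpin, and C19U between miR-27a-3p and the Mir27b hairpin. A read that starts at base 1 must therefore reach base 19 before it matches 1 of the paralogs only. The mature miR-24-3p was identical over all 22 nt at Mir24-2 and Mir24-1, so a full-length read of it maps to both loci. The miR-24 5p forms share their first 16 nt and then differ. Set against the Mir24-1 hairpin without gaps, miR-24-2-5p differs at A17U, C19U, A20C, G21A and U22G. The forms are 22 and 23 nt long, so with a gap allowed these need not be separate base changes. Reads that mapped to several places made up 35.7% of all reads in replicate 1 and 45.1% in replicate 2 and are counted for no gene. The counts of Mir24-2 and Mir24-1 thus hold only reads that fit 1 locus and do not measure miR-24-3p, and how many reads of miR-24-3p were set aside was not tested.

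The chromosome 8 cluster spans 404 nt of the plus strand in mm10. Mir23a lies at 84208518 to 84208592, Mir27a at 84208672 to 84208758 and Mir24-2 at 84208815 to 84208921. Mir23a and Mir27a overlap no other gene of GENCODE M21, and Mir24-2 shares its last 2 nt with the first exon bases of the long noncoding RNA Gm26532. The chromosome 13 cluster spans 792 nt, also on the plus strand. Mir23b lies at 63300484 to 63300557, in an intron of 2010111I01Rik, an aminopeptidase gene. Mir27b at 63300712 to 63300784 and Mir24-1 at 63301208 to 63301275 lie within an annotated exon of that gene. All 3 genes of this cluster also lie in an intron of Fancc, a Fanconi anaemia gene on the opposite strand. The gap between Mir27 and Mir24 is 56 nt on chromosome 8 and 423 nt on chromosome 13.

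Together the 6 genes took 5.29% of the sense microRNA reads of replicate 1 (235916 reads, exact Clopper-Pearson 95% interval 5.27 to 5.31%) and 9.22% of those of replicate 2 (283186 reads, 9.18 to 9.25%). The mean was 7.25% ± 2.77 (SD, n = 2). Since replicate 2 goes against its label, this mean and SD describe the 2 libraries only, not gastrocnemius or the spread between animals. Nearly all of the members' share was Mir23, which made up 93.3% of their reads in replicate 1 and 92.1% in replicate 2. Mir27 made up 6.38% and 7.49%, and the reads assigned to Mir24 0.285% and 0.396%. The order of the families was the same in both libraries. Full-length reads of miR-24-3p are counted for no gene, so these percentages are of assigned reads and do not place Mir24 as a family.

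The share depended on which other genes it was set against. The imprinted Dlk1-Dio3 region of chromosome 12 and Mir206, 67 genes in all, took 47.6% of the sense microRNA reads of replicate 1 and 0.976% of those of replicate 2. Leaving them out raised mainly the shares of replicate 1, while genes high in replicate 2, such as Mir208a, stayed in. Against the remaining reads, the 6 genes held 10.1% in replicate 1 (10.05 to 10.13%) and 9.31% in replicate 2 (9.27 to 9.34%), so that the higher share was now in replicate 1. On this scale the chromosome 8 cluster held 4.66% and 4.91%, and the chromosome 13 cluster 5.43% and 4.40%. Gene by gene, replicate 2 still had the higher share on this scale for 5 of the 6. It was 1.04 times that of replicate 1 for Mir23a, 1.56 for Mir27a, 1.22 for Mir24-2, 1.02 for Mir27b and 1.56 for Mir24-1. For Mir27b the counting intervals overlapped, at 0.563 to 0.582% in replicate 1 and 0.577 to 0.594% in replicate 2. Mir23b was lower in replicate 2, at 0.785 times its share in replicate 1, with 4.85% and 3.81%.

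Mir23a, the repressor of the atrophy ligases, had 106809 reads in replicate 1 and 145021 in replicate 2. That is 2.40% (2.38 to 2.41%) and 4.72% (4.70 to 4.74%) of the sense microRNA reads, and it ranked at 12 and 6 among all genes. Its paralog Mir23b had 113380 and 115839 reads, 2.54% (2.53 to 2.56%) and 3.77% (3.75 to 3.79%), and ranked at 10 and 9. These were the most abundant members by far, and Mir23b led in replicate 1 but Mir23a in replicate 2.

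Mir27b had 13383 reads in replicate 1 and 17811 in replicate 2, which is 0.300% (0.295 to 0.305%) and 0.580% (0.571 to 0.588%). Mir27a had 1672 and 3393 reads, 0.0375% (0.0357 to 0.0393%) and 0.110% (0.107 to 0.114%). In both libraries Mir27b stood well above Mir27a, although the neighbouring Mir23 genes of the same clusters were close to each other.

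Mir24-2 had 548 reads in replicate 1 and 870 in replicate 2, or 0.0123% (0.0113 to 0.0134%) and 0.0283% (0.0265 to 0.0303%). Mir24-1 had 124 and 252 reads, or 0.00278% (0.00231 to 0.00332%) and 0.00820% (0.00722 to 0.00928%). Both counts leave out the shared miR-24-3p form printed above. Per annotated base of each gene, the order in replicate 1 was Mir23b (1532 reads per base), Mir23a (1424), Mir27b (183), Mir27a (19.2), Mir24-2 (5.12) and Mir24-1 (1.82). In replicate 2 it was Mir23a (1934), Mir23b (1565), Mir27b (244), Mir27a (39.0), Mir24-2 (8.13) and Mir24-1 (3.71). Only the first places were exchanged between the libraries. Reads of this length come from a single arm of the hairpin, so neither the count per gene nor the count per base corrects for differences in cloning between mature sequences.

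**Figure D1:**
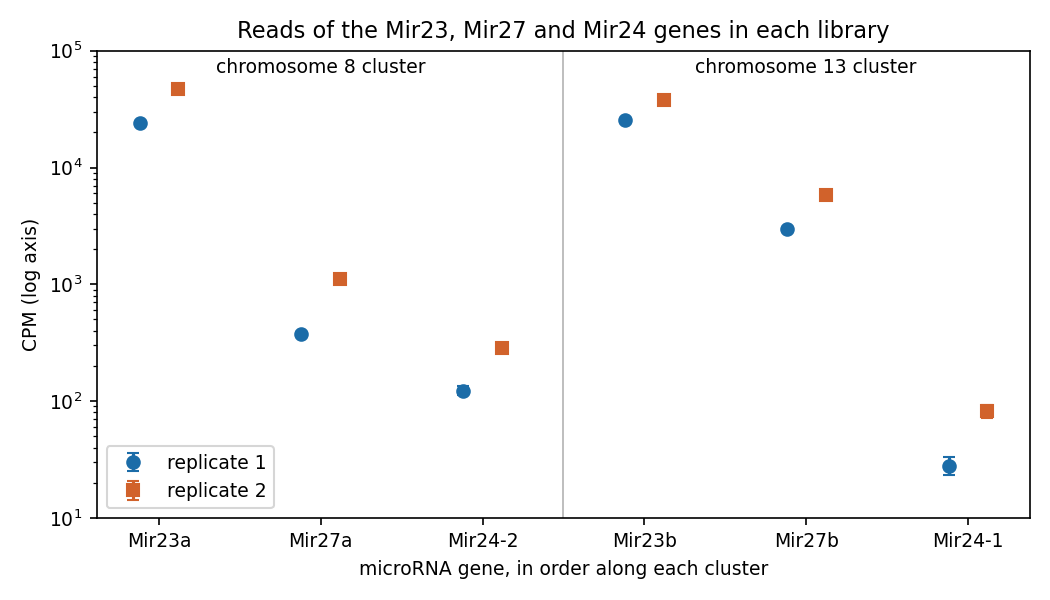
CPM, the sense microRNA reads scaled to a common library total (log axis), of the 6 genes in replicate 1 (circles) and replicate 2 (squares), with exact 95% counting intervals that are mostly narrower than the symbols. Mir23a and Mir23b lie at the top in both libraries, from 23954 to 47191 CPM, Mir27b lies above Mir27a, and the genes step down along each cluster.

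The order of reads along each cluster was the same, but the steps were not. In the chromosome 8 cluster Mir23a made up 98.0% of the reads in replicate 1 and 97.1% in replicate 2, Mir27a 1.53% and 2.27%, and Mir24-2 0.503% and 0.583%. In the chromosome 13 cluster Mir23b made up 89.4% and 86.5%, Mir27b 10.5% and 13.3%, and Mir24-1 0.0977% and 0.188%. The reads of Mir23a were 63.9 times those of Mir27a in replicate 1 (95% counting interval 60.9 to 67.1) and 42.7 times in replicate 2 (41.3 to 44.2). Those of Mir23b were 8.47 times (8.32 to 8.63) and 6.50 times (6.40 to 6.61) those of Mir27b. The step from Mir23 to Mir27 was thus steeper on chromosome 8 in each library, and in both clusters it was less steep in replicate 2.

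Ratios of paralogs within a library need no scaling between libraries. They still depend on mapping, since a 3p read of Mir23 or Mir27 from base 1 must reach base 19 to be assigned. How many shorter reads were set aside was not tested. Mir23a had 0.942 times the reads of Mir23b in replicate 1 (0.934 to 0.950) and 1.25 times in replicate 2 (1.24 to 1.26), so the paralogs lay on opposite sides of equality in the 2 libraries. Mir27b had 8.004 times the reads of Mir27a in replicate 1 (7.61 to 8.43) and 5.25 times in replicate 2 (5.06 to 5.45). Both ratios thus leaned more to chromosome 8 in replicate 2 than in replicate 1.

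For Mir24 the ratio leaned the other way and was known less precisely. Mir24-2 had 4.42 times the reads of Mir24-1 in replicate 1 (3.63 to 5.41) and 3.45 times in replicate 2 (3.00 to 3.99), from reads that fit 1 locus only. Between the libraries, the log2 paralog ratio of chromosome 8 over chromosome 13 was higher in replicate 2 by 0.41 for Mir23 (counting interval 0.39 to 0.43) and by 0.61 for Mir27 (0.52 to 0.70). For Mir24 it was lower, with a difference of -0.36 (-0.70 to -0.01). Across all reads of the members, the chromosome 8 cluster held 46.2% in replicate 1 (46.0 to 46.4%) and 52.7% in replicate 2 (52.5 to 52.9%). These intervals cover counting error only, and with 1 library on each side they say nothing about the spread between animals.

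**Figure D2:**
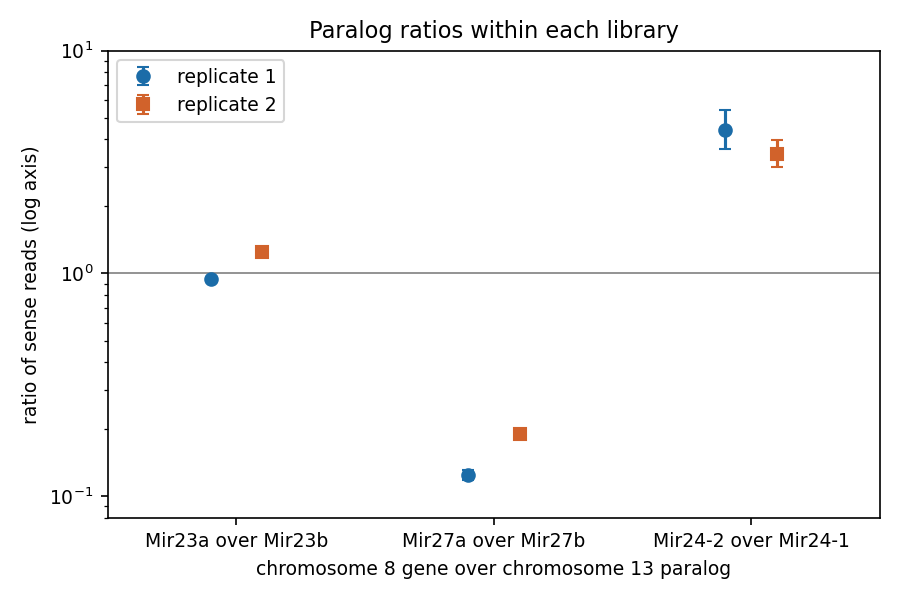
Ratio of sense reads (log axis) of each chromosome 8 gene over its chromosome 13 paralog, within replicate 1 (circles) and replicate 2 (squares), with 95% counting intervals. The Mir23 ratio lies on both sides of 1, the Mir27 ratio lies below 1 and the Mir24 ratio above 1 in both libraries.

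Between the libraries, 5 of the 6 genes had a positive log2 ratio of replicate 2 over replicate 1, scaled by the trimmed mean of M values (TMM). None of the 6 was 2-fold apart, whereas 240 of the 410 genes with at least 10 reads in total (58.5%) were. Their log2 ratios ran from -0.06 to 0.93 with a median of 0.46, beside a median of -0.33 and quartiles of -2.08 and 0.82 over all 410 genes. Mir27a stood at 0.93 (counting interval 0.85 to 1.02) and Mir24-1 also at 0.93 (0.62 to 1.26), and both intervals reach past the 2-fold line at 1. Mir24-2 stood at 0.58 (0.42 to 0.73), Mir23a at 0.35 (0.34 to 0.36) and Mir27b at 0.32 (0.29 to 0.36).

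Mir23b stood at -0.06 (-0.07 to -0.05), and changed sign under the other scalings, to 0.22 when DESeq2 size factors were used and to 0.57 when total reads were. Those scalings moved the median of all genes by 0.28 and 0.63. With DESeq2 size factors 2 members, Mir27a and Mir24-1 at 1.21 each, were at least 2-fold higher in replicate 2, beside 27.8% of all genes. With total reads Mir24-2 at 1.20 joined them, at 1.56 and 1.55, which made 3 of 6 beside 35.6% of all genes, and Mir23a was just under the line at 0.98. The number of members past the line thus turned on the scaling.

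**Figure D3:**
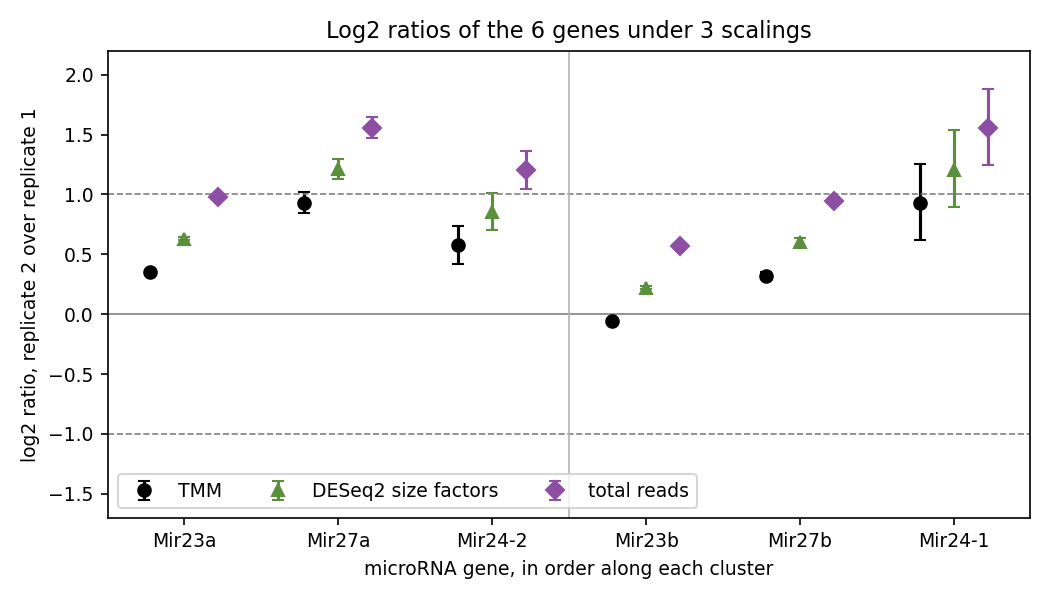
Log2 ratio of replicate 2 over replicate 1 for the 6 genes with TMM (circles), DESeq2 size factors (triangles) and total reads (diamonds), with 95% counting intervals and dashed lines at a 2-fold difference. The 3 scalings shift all genes alike, and Mir23b, at -0.06 with TMM, is the lowest under each.

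Genes cut from 1 primary transcript can be compared with other neighbouring microRNA genes. Among adjacent genes on the same strand, with starts at most 10 kb apart and at least 100 reads in each library, there were 40 pairs, 4 of them within these clusters. The log2 ratios of Mir27a and Mir24-2 differed by 0.35 and those of Mir23b and Mir27b by 0.38. Mir23a and Mir27a differed by 0.58, and Mir27b and Mir24-1 by 0.60. The members' median was 0.48, beside a median of 0.73 and quartiles of 0.37 and 1.16 over the other 36 pairs. The members' pairs ranked at 10, 12, 16 and 17 from the smallest difference, so they lay in the lower and middle part of the range and not at its end.

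**Figure D4:**
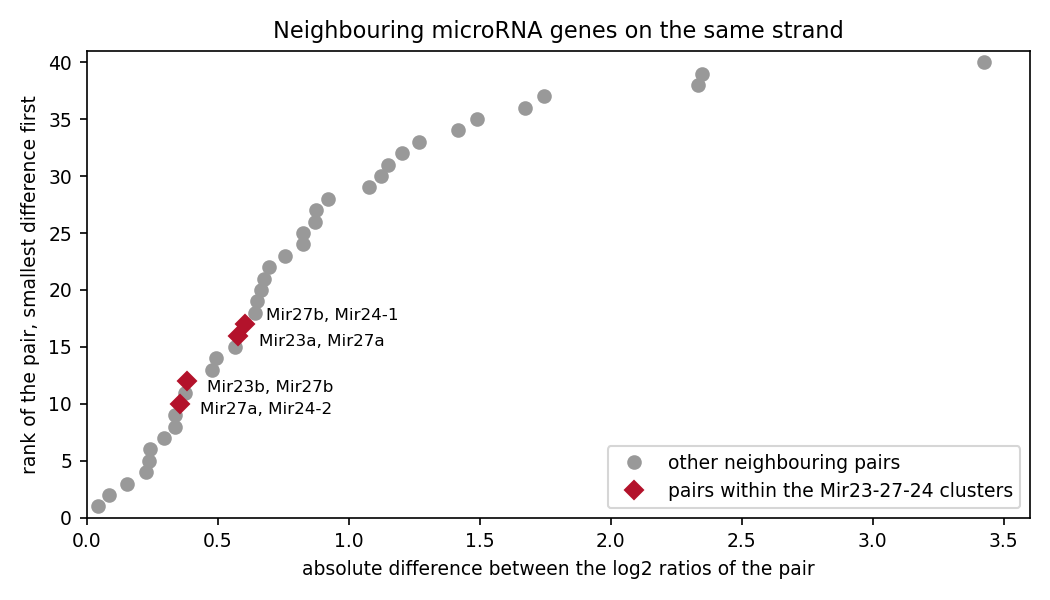
Absolute difference between the log2 ratios of neighbouring microRNA genes (horizontal axis) against the rank of the pair, with the 4 pairs of the Mir23-27-24 clusters as red diamonds and the other 36 pairs as grey circles. The members' pairs lie between 0.35 and 0.60, and the other pairs run from 0.04 to 3.43.

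The strand of counting decided the Mir24 values. GENCODE M21 places Mir3074-2 and Mir3074-1 on the opposite strand across the Mir24 genes, over 83 nt of Mir24-2 and all 68 nt of Mir24-1. The mature miR-3074-5p pairs with miR-24-3p over 20 nt, and is also identical at both loci. When strand was ignored, Mir24-2 and Mir24-1 were listed at 0 in both libraries, while the counts of Mir23a, Mir23b, Mir27a and Mir27b were the same as in the sense column. Mir3074-1 had 44 sense reads in replicate 1 and 58 in replicate 2, against 124 and 252 of Mir24-1. Mir3074-2 had 0 and 1, where a count of 0 allows up to 0.673 CPM of reads that fit this locus only in replicate 1. As for the Mir24 genes, these counts hold only reads that fit 1 locus, so they do not measure miR-3074-5p and set no limit on reads from the opposite strand at either locus.

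Other microRNAs known from vessels and muscle give the setting of these values. The endothelial Mir126a had 113331 and 203314 reads and a log2 ratio of 0.75, while Mir143 and Mir145a of smooth muscle stood at 0.54 and 0.88, so 0 of 3 tested genes of these lists were 2-fold apart. Over all 410 genes with TMM, 85 (20.7%) were at least 2-fold higher in replicate 2 and 155 (37.8%) at least 2-fold lower. The TMM counts below are to be read against these shares. Of the 3 endothelial and smooth muscle genes, 2 were higher on DESeq2 scaling and 3 on total reads. Endothelial Mir126b had 1 read in each library and was not tested. Of 6 angiogenic regulators 3 were at least 2-fold higher in replicate 2 and 0 lower, with Mir221 at 3.39, Mir92-1 at 0.995 and Mir130a at -0.54. Mir92-1 made it 4 under either other scaling, and Mir130a turned to 0.09 with total reads.

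Of 11 regulators of muscle atrophy and regeneration, 2 were higher and 6 lower, with a median log2 ratio of -1.02. Mir322, linked to cell cycle exit in myoblasts, stood at -1.02, Mir431 of the Dlk1-Dio3 region at -7.35 and Mir503 at -2.76. Under either other scaling 3 of the 11 were lower, beside 3 higher with the DESeq2 scaling and 4 higher on total reads. Of 8 tested genes of the skeletal muscle list 3 were higher and 4 lower, with Mir206 at -12.73. Mir499 at 2.05 and Mir208b at 1.93 were among the higher ones and are outside the narrower set of skeletal muscle markers. All 3 tested fibroblast markers were lower, Mir214 at -1.68 among them. Both erythroid markers were higher, Mir451a at 1.39 among them, and of 5 white blood cell markers 3 were higher and 1 lower, with Mir155 at 3.15. Under either other scaling the skeletal muscle list had 4 genes higher and 2 lower, no white blood cell marker was lower, and the fibroblast and erythroid counts were the same. The higher counts stand beside 27.8% of all genes on DESeq2 scaling and 35.6% on total reads. The share of all genes that were lower was computed for TMM only. Since those scalings raised the median of all genes by 0.28 and 0.63, the smaller lower counts under them are not read as a result. The part of these cell types in the members' values was not tested.

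The genes whose log2 ratio lay nearest the members' median of 0.46, among 80 other genes with at least 1000 reads in each library, were Mir30d (0.46), Mir15a (0.50), Mir30e (0.40), Mir143 (0.54) and Mir28a (0.55). This likeness rests on 1 ratio of 2 libraries.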

How the data were processed

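The authors deposited 1 table of raw counts for each library, with unstranded, sense and antisense reads of every microRNA gene. Assembly mm10 and annotation M21 are named in the deposited description files. For the aligner, its version and the trimming of adapters, the entry is "not given in the sources used here". The 4 summary lines that name no gene stayed out of library sizes. In the sense column they held 9.97% and 8.60% unmapped, 35.7% and 45.1% multimapping and 2.05% and 3.83% reads in no microRNA gene, for replicates 1 and 2. All 2202 identifiers matched GENCODE M21, and 0 columns came from another sample.

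The sense column was used. Shares and CPM are relative to all sense microRNA reads, with exact Clopper-Pearson 95% intervals. The limit for a count of 0 is 3 counts. No molecular identifiers are named, and PCR copies are not independent molecules, so these intervals describe counting error alone. The log2 ratio sets replicate 2 over replicate 1 after adding a prior count of 1, on TMM sizes from edgeR 4.0.16 (R 4.3.3), computed on genes with at least 10 sense reads in total. A log2 ratio of 1 in either direction was the 2-fold line. Intervals of log2 ratios and of read ratios come from the exact binomial split of the reads, and those of differences between log2 paralog ratios from the normal approximation to log counts. The log2 ratio and its interval were tested on simulated data.

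DESeq2 1.42.0 size factors, total reads, other minimum counts, a prior count of 5, the unstranded column and other denominators were alternatives. Shares per gene and per cluster without the Dlk1-Dio3 region and Mir206 were added after seeing the data. The other software was pandas 2.3.3, scipy 1.17.1 and numpy 2.4.6 under Python 3.11.15. Sequences are from RefSeq (GRCm38.p6), and shared stretches were searched in the M21 hairpins on the sense strand. The genes named are the 6 members, microRNA genes overlapping them, the 5 nearest in log2 ratio, and up to 3 of each list by mean share. Of the lists, Mir142hg did not match a counted gene. The members and lists were chosen with earlier results of these data known.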

Additional observations from a re-analysis of the deposited data

Results flagged for a closer look

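In the antisense column, outside the sense counts on which the members' shares and ratios rest, reads over Mir24-1 came to 44 in replicate 1 and 58 in replicate 2. Both exceed the limit of 3 counts set for a count of 0. They equal the sense counts of Mir3074-1, the gene annotated on that strand.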

How the results depend on the processing

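The number of members at least 2-fold apart was 0 with TMM and with a prior count of 5. It was 2 with DESeq2 size factors, 3 with total reads, 2 with no minimum count and 2 with at least 100 reads in total. With the unstranded column it was 1 of only 4 members tested, as the Mir24 genes are listed at 0 there. The last 3 settings also recompute the scaling, and under each of them Mir23b was positive, at 0.14, 0.32 and 0.11. Over all genes, 58.5% were 2-fold apart with TMM. At least 2-fold higher in replicate 2 were 27.8% of all genes on DESeq2 scaling and 35.6% on total reads. For a prior count of 5 and the last 3 settings no such share was computed. The counts of members under these settings therefore cannot be read as many or few. The summed share of the members in replicates 1 and 2 was 2.77% and 3.91% of all reads, 10.1% and 9.31% without the Dlk1-Dio3 region and Mir206, and 5.999% and 12.8% in the unstranded column. The unstranded shares rest on smaller totals, 3921261 and 2208152 reads against 4458853 and 3073086 sense reads. The Mir23 and Mir27 counts were the same in both columns. Taking each library alone gave a summed share of 5.29% to 9.22% and a chromosome 8 share of the members' reads of 46.2% to 52.7%, around a mean of 49.5%. Per annotated base, the ratios in replicates 1 and 2 were 0.929 and 1.24 for Mir23a over Mir23b, 0.105 and 0.160 for Mir27a over Mir27b, and 2.81 and 2.19 for Mir24-2 over Mir24-1. The chromosome 8 share moved to 46.1% and 52.6% without the Mir24 genes. The median difference of other neighbouring pairs ran from 0.73 to 0.94 over the distances and minimum counts tried. No ratio between the libraries can be had without a replicate. No paired analysis was possible because the labels give a single group with 1 library for each replicate number. Depth limits Mir24-1 most, with 124 and 252 reads.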
